A study of Drosophila melanogaster with 2 samples.

Results

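The 8 homeotic genes of Drosophila and the genes of their main cofactors, extradenticle and homothorax, were examined for peaks of the ecdysone-induced ETS-domain factor Eip74EF. The set comprised labial (lab), proboscipedia (pb), Deformed (Dfd), Sex combs reduced (Scr), Antennapedia (Antp), Ultrabithorax (Ubx), abdominal-A (abd-A), Abdominal-B (Abd-B), exd and hth, which are 10 of the 13945 protein-coding genes on the annotated arms. They were chosen by name, with earlier results of these data known. The chromatin came from whole embryos of both sexes, aged 8 to 16 h, of a fly line with stable expression of Eip74EF carrying enhanced green fluorescent protein at its C terminus. Chromatin immunoprecipitation with an antibody to the fluorescent tag was followed by sequencing (ChIP-seq). There was 1 group of 2 biological replicates, numbered 1 and 3, and no second genotype, treatment or time. Whole embryos mix all segments and germ layers, so a peak cannot be assigned to the segments in which a homeotic gene is active, and the promoter that drives the fusion gene is not given in the sources used here.

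The homeotic genes encode homeodomain transcription factors that give body segments their identity along the head-to-tail axis. In Drosophila they lie in a pair of clusters on chromosome arm 3R, the Antennapedia complex (lab, pb, Dfd, Scr, Antp) and the bithorax complex (Ubx, abd-A, Abd-B), in an order that follows the order of the segments they pattern. Their expression depends on enhancers spread over long introns and intergenic DNA and is kept on or off by Trithorax and Polycomb group proteins. Extradenticle and Homothorax are homeodomain proteins of the TALE class that bind DNA together with homeotic proteins, and Homothorax carries Extradenticle into the nucleus. Eip74EF (E74) is known chiefly as an early gene that the steroid hormone ecdysone switches on.

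A summit is the position of highest enrichment in a peak of the authors' lists. Signal is the authors' value for that peak, used here only for description and for ranks within a list. Of 4 lists, the IDR list holds the 5004 peaks kept by the authors' irreproducible discovery rate step and equals the 5004 strongest peaks of the pooled list. The pooled list and each replicate list hold 30000 peaks. Signals run from 184.6 to 3792 with a median of 282.5 in the IDR list. The median signal is 79.4 in the pooled list, 35.6 in the replicate 1 list and 52.8 in the replicate 3 list, so signals are not on 1 scale across lists. Read counts were not used and the depth is unknown. With 1 group, no contrast could be tested, and all comparisons with other genes are descriptions.

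Within the span from 2 kb upstream of the gene to its end, 3 of the 10 genes held an IDR summit, which were hth with 6, Antp with 4 and Ubx with 1. This is 30% of the set (exact Clopper-Pearson 95% interval 6.67 to 65.2%, counting error only), against 24.7% of all protein-coding genes. Since 9 of the 10 genes are at least 10 kb long, the closer background is that of genes of this length, where 3 of 9 homeotic or cofactor genes had an IDR summit, against 54.8% of all such genes. A summit of the pooled list was held by 6 of the 10 genes, against 48.9% of all genes, and 6 of the 9 long ones did, against 76.7% of all long genes. In the replicate 1 list 7 of the 10 held one, against 58.5%, and 6 of the 9 long ones, against 81.2%. In the replicate 3 list 6 of the 10 held one, against 47.1%, and 6 of the 9 long ones, against 77.0%. The shares over the long genes lay below the background in each of the 4 lists, but with 9 genes they are counts of individual genes more than rates.

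The 3 genes Dfd, Scr and Abd-B had no summit in any of the 4 lists, which is 3 of 10, against 38.4% of all genes, and 3 of the 9 long genes, against 16.8% of all long genes. The number of summits was very uneven among the others. The pooled list held 76 summits over hth, 14 over Ubx, 13 over Antp, 7 over lab, 6 over abd-A and 1 over pb, or 117 in all. The replicate 1 list held 67 over hth, 16 over Ubx, 10 over Antp, 9 over lab, 5 over abd-A, 3 over pb and 2 over exd. The replicate 3 list held 73 over hth, 20 over Antp, 13 over Ubx, 6 each over lab and abd-A, 1 over pb and 0 over exd. The order of hth, then Ubx and Antp, then lab and abd-A, then pb is shared by these 3 lists, while Ubx and Antp change places in replicate 3. The homeotic genes alone had 1.16 pooled summits per 10 kb, and hth had 5.67. Without hth, the set had 5 IDR and 41 pooled summits in place of 11 and 117.

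**Figure D1:**
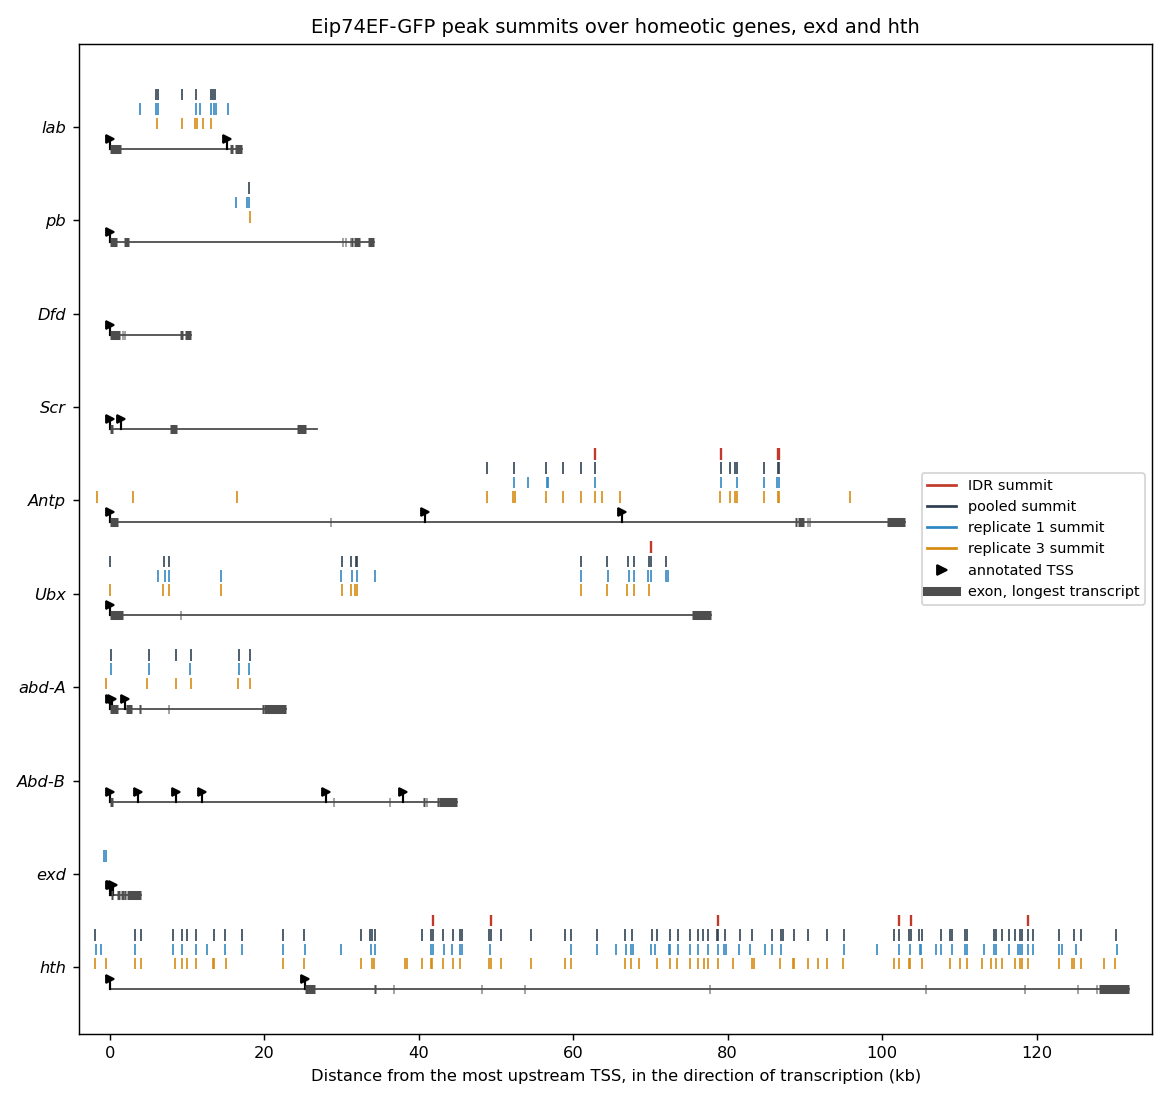
Summit maps of the 10 genes, drawn to 1 scale as distance in kb from the most upstream transcription start site of each gene, with a row of ticks for each peak list, arrowheads at start sites and the exons of the longest transcript below. Red IDR ticks appear over Antp, Ubx and hth only, and the rows of Dfd, Scr and Abd-B are empty in all 4 lists.

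The 7 summit regions that follow are shown because they are the strongest places of the genes with an IDR summit and the strongest below the IDR threshold in lab and pb. The strongest of abd-A, also below the threshold, with a pooled signal of 110.0 and GGAA at 2 places, is not shown. Each region shown is the 101 bp centred on the summit, on the plus strand of the reference genome of build dm6 (Release 6). All lie in introns and overlap no annotated UTR. Capitals mark the ETS core GGAA, read on either strand and therefore also as TTCC, or the string TGATNNAT, a form of site bound by Extradenticle with homeotic proteins, likewise on either strand.
Antp, chr3R:6936306-6936406, IDR: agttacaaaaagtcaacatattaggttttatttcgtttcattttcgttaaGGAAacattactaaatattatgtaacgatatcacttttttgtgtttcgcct
Antp, chr3R:6912501-6912601, IDR: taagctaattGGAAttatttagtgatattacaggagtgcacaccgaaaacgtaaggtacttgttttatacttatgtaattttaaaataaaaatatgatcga
Ubx, chr3R:16664312-16664412, IDR: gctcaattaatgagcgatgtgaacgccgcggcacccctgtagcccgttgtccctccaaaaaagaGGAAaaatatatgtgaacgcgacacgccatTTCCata
hth, chr3R:10537278-10537378, IDR: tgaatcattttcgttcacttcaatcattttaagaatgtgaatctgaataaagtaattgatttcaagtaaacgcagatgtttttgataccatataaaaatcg
hth, chr3R:10597710-10597810, IDR: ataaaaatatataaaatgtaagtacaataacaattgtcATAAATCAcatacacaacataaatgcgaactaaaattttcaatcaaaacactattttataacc
lab, chr3R:6667356-6667456, pooled list only: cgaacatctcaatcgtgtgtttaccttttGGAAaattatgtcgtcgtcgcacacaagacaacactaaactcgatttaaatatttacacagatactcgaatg
pb, chr3R:6723948-6724048, pooled list only: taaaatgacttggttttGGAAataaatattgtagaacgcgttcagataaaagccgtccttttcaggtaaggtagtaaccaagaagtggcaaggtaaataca
Of the regions shown, those of Antp, Ubx, lab and pb hold the GGAA core, at the summit in the first of the Antp regions. Neither hth region shown holds it, and the second holds TGATNNAT on the minus strand. This is no contrast between the genes. GGAA is absent at the Antp IDR summits at 6912750 and 6920138. It is present at the hth ones at 10520653 and 10535878 and absent at those at 10560806 and 10590251. Of all IDR windows 56.2% hold it. Of the lines shown, the Ubx region is the most GC-rich, at 49.5%, against 20.8% for the second hth region.

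Antp (FBgn0260642, 3R 6896253-6999228, minus strand, 12 transcripts from 3 start sites) specifies the middle thoracic segment and is known for the leg-for-antenna transformation. All 4 of its IDR summits lay in intron 2 of its longest transcript, a 60.1 kb intron that also contains the gene's other 2 start sites. The gene CG46458 is annotated over a part of Antp that holds all 4, so these summits lie within both genes. The strongest, at 6936356, had a pooled signal of 527.3 (rank 836 of 5004), with 172 in replicate 1 and 353 in replicate 3. It sat 3516 bp upstream of the start site at 6932840, the closest that any IDR summit came to a start site of the 10 genes. A second stood at 6912551, with a pooled signal of 412.8, 122 in replicate 1 and 286 in replicate 3, and another beside it at 6912750 with 275.5, 51.7 and 206. The weakest, at 6920138, had 259.1 in the pooled list, 93.0 in replicate 1 and 164 in replicate 3. Each of the 4 was found within 100 bp in both replicate lists, and replicate 3 ranked the second of them at 1143 where replicate 1 ranked it at 2023.

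All 13 pooled summits of Antp lay in intron 2, and 8 of them had a summit in both replicates. Intron 1, 27.5 kb long, held none in the pooled and replicate 1 lists and 2 in the replicate 3 list. Replicate 3 alone held a strong peak in intron 6, at 6903423, with a signal of 327.3 and rank 898 of 30000. The nearest replicate 1 summit was 9205 bp away, and the pooled list had none between 6819356 and 6912551. At 0.381 IDR summits per 10 kb Antp was denser than 65 of the 81 other genes at least as long, whose median was 0.0867. It was ordinary in the pooled list, with 1.24 per 10 kb, where the same 81 genes had a median of 1.07.

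The remaining homeotic genes of the Antennapedia complex had no IDR summit. Over lab (FBgn0002522, 3R 6661427-6678590, minus strand, 17.2 kb), the most anterior homeotic gene, which also acts in the midgut, all 7 pooled summits lay in the 14.1 kb intron 1. The strongest, at 6667406, had a pooled signal of 142.9 (rank 7208), with 31.2 in replicate 1 and 112 in replicate 3. The density of lab, 3.65 pooled summits per 10 kb, exceeded that of 771 of 1209 other genes as long, whose median was 2.13. Of its 7 pooled summits 2 were found in both replicates, against 49.8% of all pooled summits. Over pb (FBgn0051481, 3R 6707800-6742063, minus strand, 34.3 kb), which specifies the adult mouthparts, the single pooled summit at 6723998 in intron 3 had a signal of 166.2 (rank 5831). Replicate 1 gave it 92.4 and rank 3411, inside that list's own strongest 5004, and replicate 3 gave 77.0 and rank 9388, so the replicates placed it on either side of that line. It lay 18.1 kb from the start site.

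Dfd (FBgn0000439, 3R 6791836-6802428, plus strand, 10.6 kb), which specifies the maxillary and mandibular segments, had no summit, as was the case for 305 of 1864 other genes at least as long (16.4%). Scr (FBgn0003339, 3R 6823120-6849981, minus strand, 26.9 kb), the gene of the labial segment and first thoracic segment, had none either, like 120 of 753 (15.9%). Scr and the pair-rule gene ftz beside it lay in a stretch of 84.1 kb, from 6819356 to 6903423, without a summit in the pooled list or either replicate. The empty stretch around Dfd was 33.5 kb. In the pooled list alone the stretch over Scr measured 93.2 kb, rank 136 among 29994 distances between neighbouring summits, whose median was 1.10 kb.

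In the bithorax complex the only IDR summit over a homeotic gene was in Ubx (FBgn0003944, 3R 16656623-16734426, minus strand, 77.8 kb, 6 transcripts from 1 start site), which specifies the hindmost thoracic segment and the haltere. It stood at 16664362 in the 51.5 kb intron 3, 70.1 kb downstream of the start site, with a pooled signal of 199.7 (rank 4452). Replicate 1 had a summit 3 bp away with a signal of 46.7 and a rank of 10425. Replicate 3 had none within 100 bp, and its nearest, at 16664568, had a signal of 153.4 and lay beside a separate pooled summit at 16664569 with 175.0. That pooled summit fell just under the lowest IDR signal of 184.6, so the pair of neighbouring summits straddles the threshold. The 14 pooled summits comprised 11 in intron 3, 2 in intron 1 and 1 at the promoter, and 5 of the 14 were found in both replicates. The density of 0.125 IDR summits per 10 kb was close to the median of 0.133 over 140 other genes as long.

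abd-A (FBgn0000014, 3R 16807214-16830049, minus strand, 22.8 kb), which specifies anterior abdominal segments, had 6 pooled summits and no IDR summit. The strongest, at 16819558 in intron 4, had a pooled signal of 110.0, 51.1 in replicate 1 and 59.2 in replicate 3. Of the 6 pooled summits 2 were found in both replicates. The pooled density of abd-A, 2.42 per 10 kb, was near the median of 2.11 over 891 other genes as long. Abd-B (FBgn0000015, 3R 16927212-16972236, minus strand, 45.0 kb, 10 transcripts from 6 start sites), which specifies the posterior abdomen and genital segments, had no summit, as did 54 of 373 other genes as long (14.5%). It lay in a stretch of 108.3 kb, from 16873196 to 16981464, without a summit in the pooled list or either replicate. In the pooled list alone that stretch was 110.6 kb, rank 90 of 29994.

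**Figure D2:**
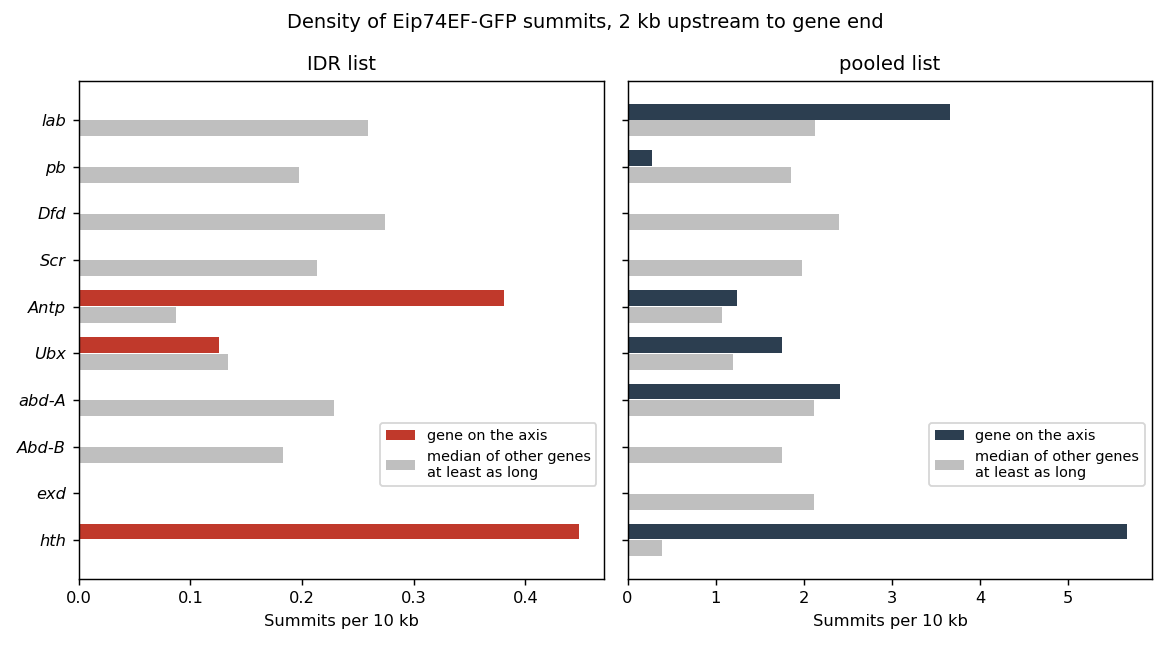
Summits per 10 kb in the IDR and pooled lists for each of the 10 genes, as bars from 0, with a grey bar under each for the median of other protein-coding genes at least as long. The bar of hth stands at 5.67 in the pooled list against a median of 0.389, and Dfd, Scr, Abd-B and exd have no coloured bar in either panel.

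The gene hth (FBgn0001235, 3R 10507561-10639568, minus strand, 132.0 kb, 5 transcripts from start sites at 10639568 and 10614276) carried most of the summits of the set. Its longest transcript has 13 introns, numbered here from the 5′ end. The strongest IDR summit, at 10537328 in intron 8, had a pooled signal of 605.0 (rank 627), with 190 in replicate 1 and 413 in replicate 3. Next came 10597760 in intron 3, with a pooled signal of 402.3, 150 in replicate 1 and 264 in replicate 3. Both exceeded the IDR median of 282.5, and the other 4 did not. These were 10560806 in intron 7 with 234.9, 10590251 in intron 5 with 224.2, 10520653 in intron 11 with 203.4 and 10535878, again in intron 8, with 195.4. In replicate 1 the first 3 of these 4 had signals of 58.2, 70.8 and 63.1, and in replicate 3 they had 163, 139 and 137. The weakest had a replicate 3 signal of 163 and no replicate 1 summit within 100 bp, the nearest being 117 bp away.

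The transcripts of hth differ in how far they extend, and the short forms lack the homeodomain. Only the 2 longest transcripts, which end at 10507561 and 10509847, contain all 6 IDR summits. The 3 shorter transcripts end between 10581406 and 10585284 and contain 2 of the 6, those in introns 3 and 5. The longest transcript held 64 of the 76 pooled summits. Intron 6, at 23.7 kb the longest in this transcript, held 14 pooled summits and no IDR summit. The densest was intron 10, with 9 pooled summits in 8.22 kb, 9 in replicate 1 and 8 in replicate 3, also without an IDR summit. Introns 2, 4 and 13 held no summit in any list.

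With 0.448 IDR summits per 10 kb, hth was denser than 39 of 40 other genes at least as long, whose median was 0. With 5.67 in the pooled list, 5.00 in replicate 1 and 5.45 in replicate 3, it was denser than all 40 in each, against medians of 0.389, 0.387 and 0.485. Most of these summits were weak. There were 12.7 pooled summits for each IDR summit, against 5.995 over the genome, and 28 of the 76 (36.8%) had a summit within 100 bp in both replicates, against 49.8% of all pooled summits.

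The gene exd (FBgn0000611, X 15992468-15996509, plus strand, 4.04 kb, 4 transcripts from 3 start sites) had summits in replicate 1 alone. They stood at 15991791 and 15991991, upstream of the gene, with signals of 30.7 and 30.0 and ranks of 17808 and 18339. The second lay 477 bp from the nearest exd start site and 17 bp from that of another gene, CG46312, so it cannot be assigned to exd. Pooled summits left exd in an empty stretch of 171.0 kb, rank 29 of 29994. The cofactor genes thus had 76 pooled summits over hth and 0 over exd.

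At the promoters, taken as 500 bp to either side of a start site, none of the 10 genes had an IDR summit, against 15.6% of all protein-coding genes. The exact 95% interval for 0 of 10 reaches 30.8%. It covers counting error only, for genes chosen with earlier results known, so it does not test the absence. Counted by start site, 0 of 24 had an IDR summit within 500 bp, against 14.6% of all protein-coding start sites. The distance from each of the 24 start sites of the set to the nearest IDR summit ran from 3516 bp to 99.6 kb with a median of 28.6 kb, against a median of 7.69 kb over all 19252 protein-coding start sites. In the pooled list 3 of the 10 genes had a promoter summit (Ubx, abd-A, hth), against 38.7%. In replicate 1 there were 4 (lab, abd-A, exd, hth), against 47.2%, and in replicate 3 there were 4 (Antp, Ubx, abd-A, hth), against 36.0%. The exd count rests on the summit that cannot be assigned to exd. The lab count rests on the start site at 6663454, inside intron 1 of the longest transcript. From the other lab start site, at 6678590, the nearest replicate 1 summit was 3.97 kb away. Both replicate lists had a promoter summit in abd-A and hth, and only in hth did they lie within 100 bp of the pooled one.

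The promoter summits in the pooled list had signals below that list's median of 79.4. At the hth start site at 10614276, the pooled summit at 10614419 had a signal of 68.5 (rank 17600), with 35.5 in replicate 1 at 58 bp from the start site and 51.5 in replicate 3 at 186 bp. At Ubx the pooled summit was 11 bp from the start site, with 55.9, and the replicate 3 summit was at the start site itself, with 42.0. The nearest replicate 1 summit was 6208 bp away. At abd-A the pooled summit had 41.3 and lay 104 bp from the start site at 16829752, with a replicate 1 summit of 23.9 at 52 bp from it. The replicate 3 summit at this promoter, with 45.4, was a different one, 647 bp from the pooled summit and 454 bp upstream of the start site at 16830049. The promoter summits of lab in replicate 1 and of Antp in replicate 3 had signals of 19.4 and 63.2, each in that replicate only. The Antp value was above the replicate 3 median of 52.8, and the hth value in replicate 1 was close to that list's median of 35.6.

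**Figure D3:**
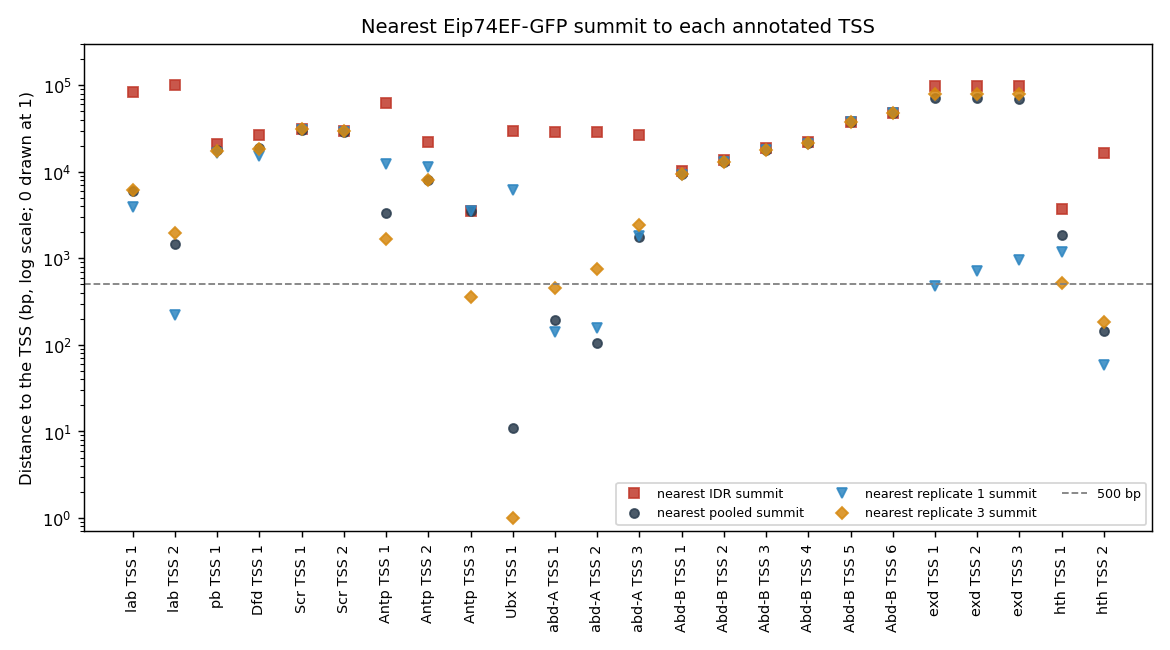
Distance in bp, on a vertical log axis, from each of the 24 start sites of the 10 genes to the nearest summit in the IDR, pooled and replicate lists, with the promoter limit of 500 bp drawn as a dashed line and a distance of 0 bp drawn at 1 bp. No IDR point is below the limit, the closest being 3516 bp away at Antp. Below it are pooled points of Ubx, abd-A and hth. So are replicate 1 points of lab, abd-A, exd and hth and replicate 3 points of Antp, Ubx, abd-A and hth.

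All 11 IDR summits of the set were intronic, against 41.2% of all 5004 IDR summits. Another 41.2% of all IDR summits were at promoters. The exact 95% interval for the 11, 71.5 to 100%, treats them as independent, but 6 lay in hth and 4 in a single intron of Antp. It is therefore too narrow to be set against the share of all IDR summits. The 11 had a median distance to a start site of their own gene of 24.0 kb. To any protein-coding start site it was 20.3 kb, against 938 bp over all IDR summits. All 11 were over 2 kb from any such start site, against 36.8% of all IDR summits. Of the 106 pooled summits of the set outside the IDR list, 99 (93.4%) were intronic, against 49.8% of all 24996 such summits, and 3 (2.83%) were at promoters, against 23.2%. The others were 2 in 3′ UTRs, 1 in a coding exon and 1 upstream. The comparison did not match genes for their share of intronic sequence. Summits of the set were taken only from gene spans, so a higher intronic share is partly built in. The background also holds intergenic or other summits, 15.6% of all IDR summits and 22.7% of all pooled summits outside the IDR list. In addition, hth alone held 76 of the 117 pooled summits of the set.

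Of the 11 IDR summits 9 (81.8%, exact 95% interval 48.2 to 97.7%) had a summit within 100 bp in both replicate lists, against 92.5% of all IDR summits. The 2 that did not were the weakest hth summit, 117 bp from the nearest replicate 1 summit, and the Ubx summit, 206 bp from the nearest in replicate 3. Both were thus unmatched only by distance, and with a match within 250 bp the share was 100%. Among each replicate's own strongest 5004 peaks were 10 of the 11 in replicate 3 and 5 of the 11 in replicate 1. With replicate 3 left out, the strongest 5004 peaks of replicate 1 gave 6 summits over the set (Antp 3, hth 2, pb 1) in place of 11, and with replicate 1 left out, those of replicate 3 gave 12. For the pooled summits of the set, 46 of 117 (39.3%) were found in both replicates, against 49.8% of all. The signals of the 11 had a lowest value of 195.4, a median of 259.1 and a highest value of 605.0, and 4 of the 11 were above the IDR median of 282.5.

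**Figure D4:**
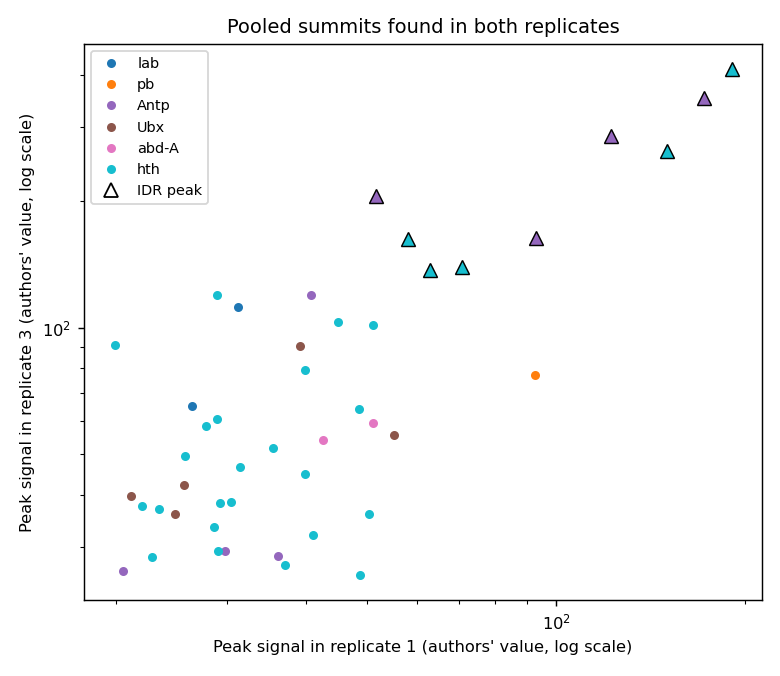
Signal in replicate 3 against replicate 1, on log axes, for the pooled summits of the set found in both lists, with IDR summits as triangles and genes by colour. The strongest points are the hth summit with 413 in replicate 3 and 190 in replicate 1 and the Antp summit with 353 and 172.

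Taken over the whole clusters, including the DNA between genes, the Antennapedia complex from lab to Antp (337.8 kb) had 6 IDR summits, or 1.78 per 100 kb, against 3.63 over arm 3R. The bithorax complex from Ubx to Abd-B (315.6 kb) had 4, or 1.27 per 100 kb. The pooled list gave 12.4 per 100 kb in the Antennapedia complex and 15.2 in the bithorax complex, against 21.1 over the arm. Replicate 1 gave 13.0 and 16.8, against 21.2, and replicate 3 gave 13.3 and 18.1, against 21.2. Both clusters were below the arm's mean in every list. Within them the summits of homeotic genes were concentrated in Antp, Ubx, abd-A and lab, and Dfd, Scr and Abd-B had none.

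**Figure D5:**
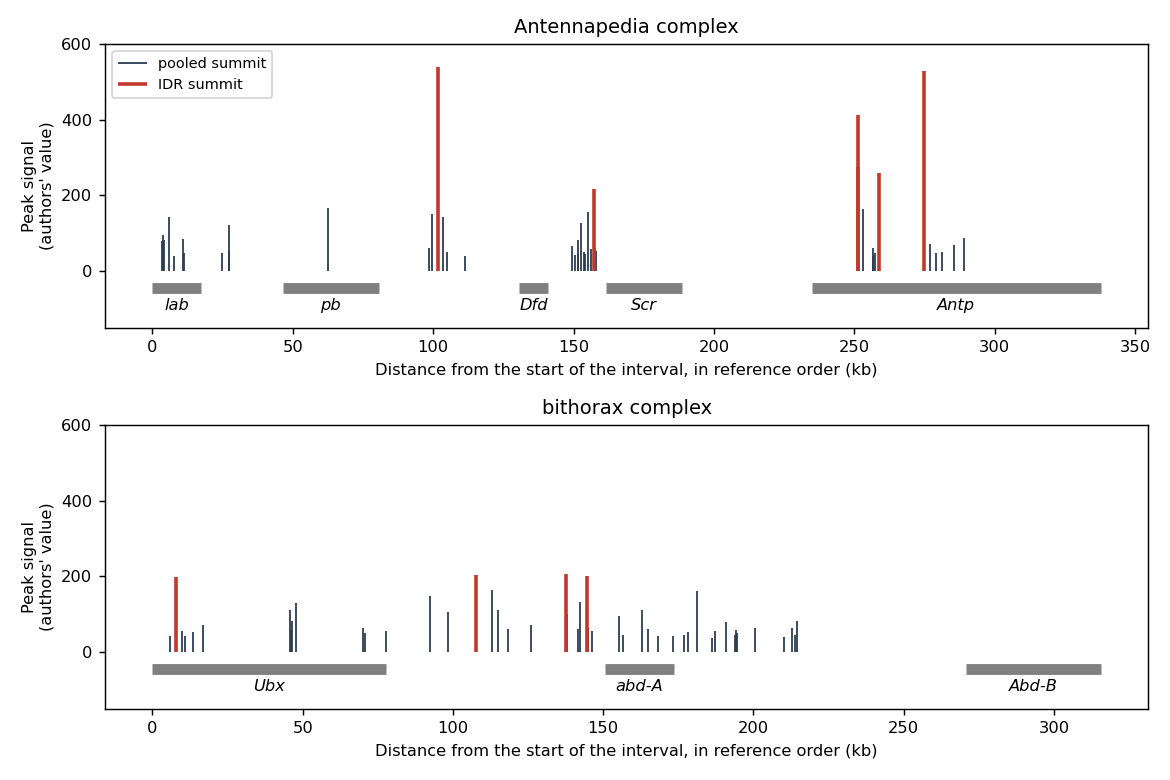
Pooled and IDR summits along the 2 homeotic clusters, with position in kb from the cluster's first base on the horizontal axis, the authors' pooled signal as the height of each line and the homeotic genes drawn below as grey bars. No line stands over Scr, Dfd or Abd-B, and the tallest line over a homeotic gene is the Antp summit of 527.3, while the line of 538.4 lies over Ama. The Antp summits of 412.8 and 275.5 are so close that they overlap.

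The letters around the summits were searched on both strands within 50 bp. GGAA was present at 5 of the 11 IDR summits (45.5%), against 56.2% of all IDR summits, and at 65 of the 117 pooled summits (55.6%), against 55.3%. The longer ETS string CGGAAG, which contains GGAA, was at 0 of 11, against 7.31%, and at 4 of 117 (3.42%), against 4.40%. TAATTA, a core bound by many homeodomain proteins, was at 2 of 11 (18.2%), against 9.69%, and at 5 of 117 (4.27%), against 7.59%, so its order turned between the lists. TGATNNAT was at 2 of 11, against 8.15%, and at 13 of 117 (11.1%), against 7.56%. These are shares of windows that hold the letters, not sites. The windows of the IDR summits of the set had a median GC content of 26.7% (12.9 to 49.5%), against 34.7% for all IDR windows. In the pooled list the medians were 40.6% and 39.6%.

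Genes that control the homeotic clusters or are controlled by them were counted the same way. Of 18 Trithorax group genes, which maintain active homeotic expression, 10 had an IDR summit in their span and 6 at the promoter. The strongest in a span were those of Trl with a signal of 2112, trx with 1528 and osa with 1463, all in introns. Of 19 Polycomb group genes, which maintain repression, 4 had one and 1 at the promoter. The strongest were ph-p at 1688, at the promoter, and phol at 981.2 and ph-d at 928.6, both upstream beyond the promoter window. Of 7 genes for insulator proteins 4 had one, Cp190 at 1236, mod(mdg4) at 644.4 and pita at 493.8 being the strongest, and 3 had one at the promoter. Of 9 known targets of homeotic proteins 6 had one and 4 at the promoter. The strongest were dpp at 528.5 and CrebA at 456.8, both in introns, and fkh at 424.4, at the promoter. Over all genes the shares were 24.7% in the span and 15.6% at the promoter, but these are not matched for length, and 54.8% of genes of at least 10 kb had a summit in the span. Of the listed genes of that length, 8 of 9 Trithorax, 2 of 4 Polycomb, 3 of 4 target and 1 of 1 insulator genes had one.

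Segmentation genes set the early domains of homeotic expression. Of 8 gap and maternal genes 2 had an IDR summit, knrl at 342.1 and cad at 187.7, and of 9 pair-rule genes 1 had one, hry at 266.7, counts that with so few genes are not read against the background. Of 13 other region and segment identity genes 4 had one, with cnc at 487.9, disco-r at 437.6 and tsh at 291.1 as the strongest. Of the 5 other genes of the Antennapedia complex 1 had one, the cell-surface protein gene Ama at 538.4. The strongest summit of the homeotic and cofactor genes, 605.0 in hth, was above the strongest of each of these segmentation and identity lists and below the strongest of the Trithorax, Polycomb and insulator lists.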

How the data were processed

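Per the labels and the descriptions deposited with the files, peaks were called by the authors for each replicate and for the pooled replicates, using a control library, and the authors derived the IDR list from these, on assembly dm6. For the aligner, the peak caller and the IDR threshold, names and versions were not given in the sources used here. The deposited signal of each peak is the authors' value, on an unstated scale, and the control library is not described in the sources used here. The deposited −log10 q-value was the same, 4.18, for all IDR peaks and was not used for ranks. Summits are 1-based and were placed on Ensembl release 115 (BDGP6.54), the same assembly, with Python 3.11.15, pandas 2.3.3, NumPy 2.4.6 and SciPy 1.17.1, and figures were drawn with matplotlib 3.10.9. A gene's span ran from 2 kb upstream to its end, a promoter was 500 bp to either side of a start site, and replicates matched within 100 bp. Intron numbers follow the longest transcript that holds the summit in an intron. Summits in overlapping genes count for each. The genes and gene lists were chosen with earlier results of these data known. The genes named were all 10 of the set, their IDR summits, the strongest pooled summit of the others, and up to 3 genes of each other list with the strongest IDR summit. The replicate 3 peak in Antp intron 6 was singled out after its values were seen. The promoter class, the intron numbers and the counts within a span were tested on simulated positions. Replicate matching and the search for letters around summits were not tested in this way. Intervals cover counting error only, and those over summits treat summits of the same gene as independent.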

Additional observations from a re-analysis of the deposited data

How the results depend on the processing

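The 3 genes with an IDR summit became 2 in the upper part of the list, above its median signal, and 2 when pooled peaks had to be present in both replicates, and 6 in the unthresholded pooled list. The 11 summits became 4 in the upper part of the list, above its median signal, 117 in the pooled list and, in alternatives chosen after the data were seen, 5 without hth, with 117 pooled summits becoming 41 without hth. Taking the strongest 5004 peaks of 1 replicate in place of the IDR list gave 6 to 12 summits, 3 genes, 0 promoters and 100% intronic, with 6 when replicate 3 was left out (Antp 3, hth 2, pb 1, Ubx 0) and 12 when replicate 1 was left out. The cause was not tested. The genes with a promoter summit were 0 with windows of 250 and 1000 bp and 3 in the pooled list. The share found in both replicates, 81.8%, was 100% with a match within 250 bp, 63.6% within 50 bp, 45.5% among the strongest peaks of each replicate, and 90.9% against either replicate alone. Extending to 10 kb upstream gave 12 summits, 91.7% intronic. No paired analysis was possible because there is only 1 group. The lists have no counts, so depth sets an unknown limit on how weak a peak could be listed, and an empty gene means no peak among the strongest 30000.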

Other observations

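Outside the spans used for the genes, the homeotic clusters held IDR summits in noncoding genes, between genes and in Ama. In the bithorax complex 1 stood in lncRNA:bxd, a noncoding gene upstream of Ubx, at 16764181 with a pooled signal of 203.4, 66.8 in replicate 1 and 136 in replicate 3. A further pair lay between lncRNA:bxd and abd-A, in no annotated gene, at 16794377 with 207.5 and at 16801272 with 201.3. Replicate 1 gave them 60.8 and 52.9 and replicate 3 gave them 151 and 138. All 3 were closer to the lowest IDR signal of 184.6 than to the median of 282.5.

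In the Antennapedia complex the summit at 6763071 lay in Ama and lncRNA:CR45593, with a pooled signal of 538.4, 187 in replicate 1 and 340 in replicate 3, above each homeotic gene summit. Another, at 6818769 with 216.1, lay between Dfd and Scr in no annotated gene, beyond the 3′ end of Scr. Replicate 1 gave it 64.3 and replicate 3 gave 136.

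Upstream of hth an IDR summit stood 3696 bp from the first start site, at 10643264, inside the antisense gene asRNA:CR44018. Its pooled signal was 277.0, with 108 in replicate 1 at 104 bp and 185 in replicate 3.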
